A study of Mus musculus with 11 samples.

Results

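The genes described here are 38 enzymes, subunits and regulators of glycolysis, pyruvate entry into mitochondria and the citric acid cycle. They were chosen by name from textbook pathway membership, by a rule that uses no measured value, though with earlier results of these data known. Of the 38, 35 had a probe set with a single gene symbol, and 34 of those had a mean signal above the filter on dim genes (log2 6.99, the 40th percentile of all gene means) and were tested. They stand among 19938 genes with such a probe set, of which 11963 were tested. Hk2, the hexokinase of insulin-sensitive tissues, was below the filter, with a mean log2 signal of 6.51 in Rarb-null and 6.39 in wild-type (WT) arrays. Gpi1, Eno1 and Mpc2 had no single-symbol probe set in the platform annotation and were not analysed here.

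The samples were nucleus accumbens tissue of male mice that carried a null mutation of Rarb (Rarb-null, n = 5) or were their wild-type littermates (WT, n = 6). All were aged 4 to 5 months, had undergone no behavioural testing, came from matings of heterozygotes and shared a mixed C57BL/6J and 129SvEms/j background. Each array held RNA of 1 mouse, from punches 0.5 mm wide taken on both sides of 3 brain sections of 300 µm and enriched for the shell of the nucleus accumbens. The part of Rarb that the mutation removes, and where the probes lie relative to it, are not given in the sources used here. The punch holds all cell types of the region and may hold some of its neighbours, and in such tissue fewer cells of a type and less RNA per cell cannot be told apart. The titles give 5 Rarb-null and 6 WT mice, while the extraction protocol gives these sizes the other way round. The titles were used.

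Glycolysis splits glucose in the cytosol into pyruvate, with net gain of ATP and NADH. Pyruvate is then reduced to lactate, or carried into mitochondria, where the pyruvate dehydrogenase complex makes acetyl-CoA from it. The citric acid cycle oxidises acetyl-CoA and passes electrons to the respiratory chain, and its intermediates are drawn on for glutamate and GABA, the transmitter of the projection neurons that make up most of the nucleus accumbens. Rarb encodes retinoic acid receptor beta, a nuclear receptor that is abundant in these neurons.

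The Rarb probe set gave log2 signals of 9.88, 9.86, 10.01, 9.99 and 9.72 in the 5 Rarb-null arrays, against a lowest value of 11.70, a median of 11.75 and a highest of 11.81 in the 6 WT arrays. The groups did not overlap, the difference (Rarb-null minus WT) was -1.86 (SE 0.047), and limma's Benjamini-Hochberg adjusted p was 4.44e-11. Over all probe sets, array medians lay between 7.08 and 7.11 in Rarb-null and between 7.02 and 7.06 in WT arrays, and interquartile ranges between 3.38 and 3.49 in Rarb-null and between 3.49 and 3.55 in WT arrays.

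Sucla2, Dld, Suclg1, Pdha1, Pfkp and Ldhb fell in Rarb-null arrays and Sdha rose, at an adjusted p below 0.05 over all genes tested. The 7 called members were 20.6% of the 34 tested, beside 19.6% of all 11963 tested genes, so the share of members called was near the background. The 6 that fell stand against 12% of all genes called lower, and the 1 that rose against 7.56% called higher. Differences ranged from -0.20 to 0.12 with a median of -0.056, beside a median of -0.017 over all genes. The difference was negative in 26 members (76.5%), beside 57.2% of all genes. The 2 sets were not matched for level: the members' median level was 11.29, beside 8.96 over all genes. The median difference over all genes was 0.020 with no filter and -0.028 above the 60th percentile of gene means. Above that percentile, 1209 genes were called lower and 510 higher. The part of signal level in the members' lean was not tested. Arrays were also centred, by subtracting from each its median signal over the 11963 genes that passed the filter, not over all probe sets. Centring moved differences upward. Then 18 members were negative and 16 positive, and their median was -0.016 beside 0.023 over all genes. Of the members, 2 then fell (Dld and Sucla2) and 1 rose (Sdha). Over all genes centring turned the split of calls, to 1677 higher and 939 lower, against 905 higher and 1436 lower as deposited. In 3 members (8.82%) the 2 genotypes' arrays did not overlap, beside 11.2% of all genes.

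The shares of cytosolic and of mitochondrial members called were both near the 19.6% of all genes. Among 12 tested genes of glycolysis and lactate conversion, Pfkp and Ldhb fell (16.7% called) and none rose. Of the 12, 6 had a negative difference (50%), and the median difference was -0.0043. Among 21 tested genes of pyruvate entry and the citric acid cycle, 4 fell and 1 rose (23.8% called), and the median was -0.064. Of the 21, 19 had a negative difference (90.5%), beside 57.2% of all genes, again not matched for level. The remaining gene is Mdh1, the cytosolic malate dehydrogenase. With centred arrays the medians were 0.036 for the cytosolic and -0.024 for the mitochondrial genes. The differences of the mitochondrial genes Cs, Idh2, Idh3b, Idh3g, Fh1 and Mdh2 then turned positive. The difference between these groups of genes was not tested.

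**Figure D1:**
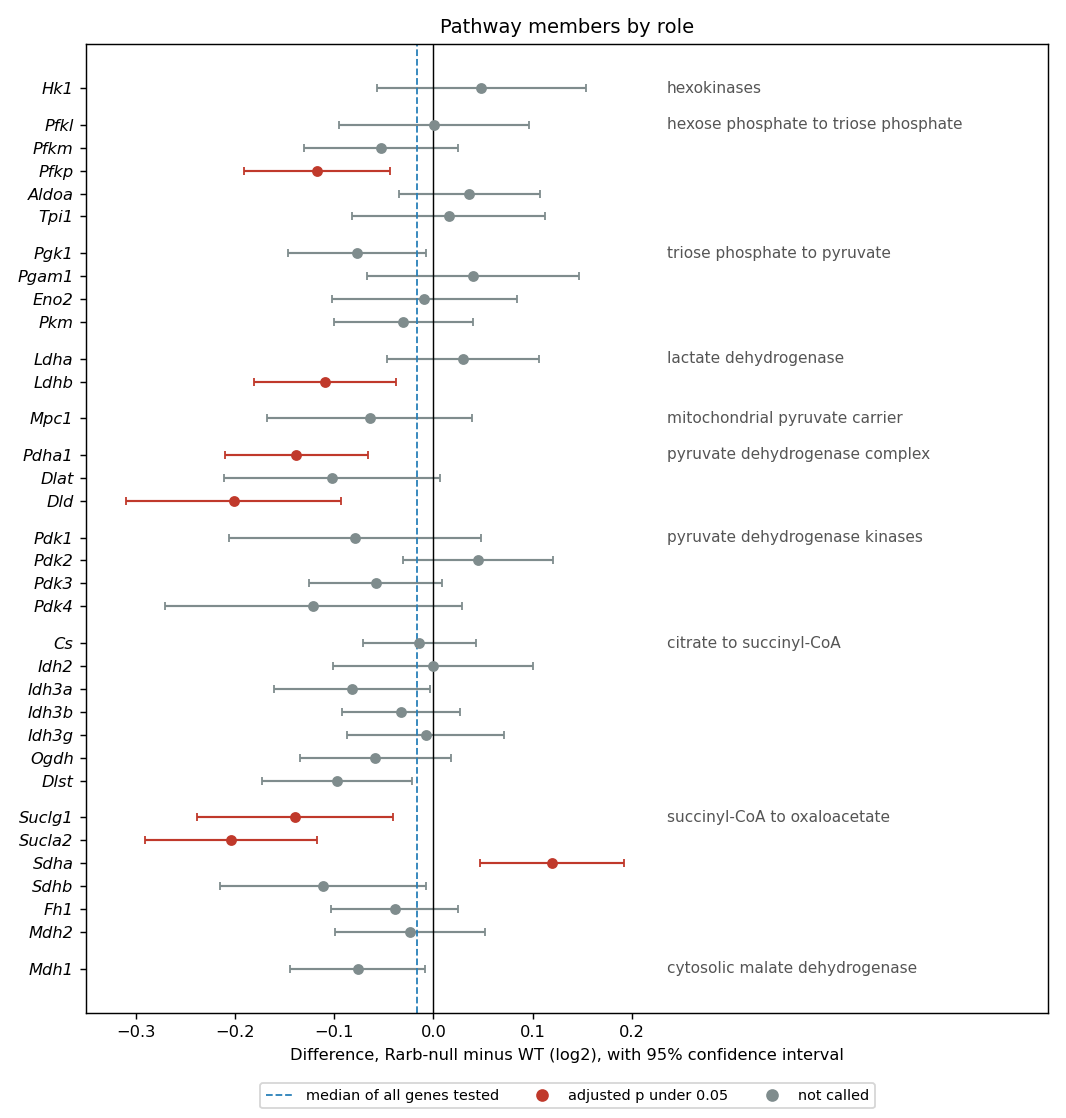
Difference in log2 signal (Rarb-null minus WT, horizontal axis) of each of the 34 tested members, ordered by role, with points for the estimates and bars for their 95% confidence intervals. Estimates run from -0.20 to 0.12, and most of the mitochondrial genes lie left of 0.

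**Figure D2:**
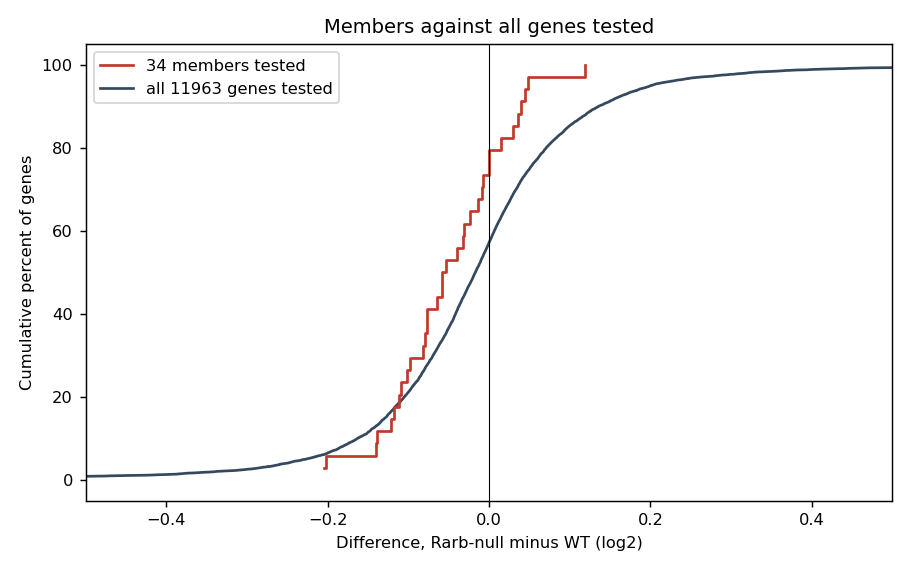
Distribution of log2 differences (Rarb-null minus WT) over all 11963 tested genes, with the 34 members set beside it. The members lie in the narrow centre of the distribution, with a median of -0.056 against -0.017 for all genes.

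The promoters of 2 of the 7 called members, Sucla2 and Ldhb, are shown because they hold a hexamer of the kind that retinoic acid receptors bind. These 2 of 7 are a smaller share than the 44.7% of 17492 protein-coding genes whose promoters hold it. Both sequences run from 250 bases before to 50 bases after the RefSeq start on GRCm38.p6, 5′ to 3′ on the gene's strand, and the capitals mark the hexamer. Sucla2 lies on the plus strand at chr14:73552536-73552835, and Ldhb on the minus strand at chr6:142507908-142508207, where the hexamer reads on the opposite strand.
Sucla2: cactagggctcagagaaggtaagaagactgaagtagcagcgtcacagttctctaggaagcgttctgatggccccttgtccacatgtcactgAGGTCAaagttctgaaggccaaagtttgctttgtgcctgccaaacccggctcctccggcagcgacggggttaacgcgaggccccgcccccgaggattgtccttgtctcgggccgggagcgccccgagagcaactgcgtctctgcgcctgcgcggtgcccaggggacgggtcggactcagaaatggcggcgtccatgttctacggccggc
Ldhb: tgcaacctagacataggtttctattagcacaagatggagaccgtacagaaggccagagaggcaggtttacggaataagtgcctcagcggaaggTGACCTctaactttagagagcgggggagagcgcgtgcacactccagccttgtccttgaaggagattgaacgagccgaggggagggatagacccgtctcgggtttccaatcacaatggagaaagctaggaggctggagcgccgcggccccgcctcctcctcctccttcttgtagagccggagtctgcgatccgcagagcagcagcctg

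Promoters of 37 members were in the RefSeq table, that of Idh3a being the exception. The hexamer was counted as AGGTCA, in the form GGGTCA, in the form AGTTCA, or in the form GGTTCA, on either strand. It was found in 20 of the 37 (54.1%), beside 44.7% of 17492 protein-coding genes. Direct repeats of this hexamer with 1, 2 or 5 bases between were found in 0 members, beside 0.217%, 0.103% and 0.0915% of all promoters. AAGGTCA, the extended hexamer of estrogen-related receptors, which overlaps the hexamer AGGTCA, was in 3 members (8.11%) beside 4.73% of promoters. CCGGAAG, an ETS-factor motif, was in 5 members (13.5%) beside 12.9%, and GCGCATG, a part of the NRF1 motif, in 3 (8.11%) beside 5.4%. None of the last 3 motifs was in the promoter of any of the 7 called members. Among the members, only Sucla2 lies on chromosome 14 with Rarb, with 623 protein-coding genes between them. The positions of the other pathway genes named below were not examined.

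Among enzymes of the first steps of glycolysis, the phosphofructokinase gene Pfkp fell. Hk1, the hexokinase that commits glucose to the pathway in brain, had a difference of 0.048 (95% confidence interval -0.057 to 0.15, adjusted p 0.509 by limma). Phosphofructokinase, the main control point of glycolysis, has 3 isozyme genes named for platelet, liver and muscle. Pfkp, the platelet form, had log2 signals of 10.93, 10.95, 10.89, 10.89 and 10.98 in Rarb-null arrays, against a lowest of 10.99, a median of 11.03 and a highest of 11.15 in WT arrays. Every Rarb-null array lay below every WT array, though the nearest 2 differed by little. Pfkp averaged 10.93 ± 0.04 (SD, n = 5) in Rarb-null and 11.05 ± 0.05 (SD, n = 6) in WT arrays. It fell by 0.12 (SE 0.034) on the log2 scale, with an adjusted p of 0.0295, and the linear signal fell by 7.80%. The call was lost without Rarb-null replicate 3 (adjusted p 0.0771) or replicate 4 (0.0664).

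The other phosphofructokinase genes were not called. Pfkl, the liver form, had a difference of 0.00051 (interval -0.095 to 0.096), and Pfkm, the muscle form, one of -0.053 (interval -0.13 to 0.024). Whether the genotype difference itself differed between isozymes was tested by an exact two-sided permutation of the arrays, for 14 pairs of related genes. Pfkl minus Pfkp was higher in Rarb-null than in WT arrays by 0.12, with an exact p of 0.026 and an adjusted p of 0.0909 over the 14 pairs, so the isozymes were not shown to differ. Aldolase A (Aldoa), which splits fructose bisphosphate, had a difference of 0.036 (adjusted p 0.458), and triosephosphate isomerase (Tpi1) one of 0.015 (adjusted p 0.837).

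No gene of the payoff steps, in which ATP and pyruvate are made, was called. Pgk1, the phosphoglycerate kinase, came nearest, with a range of 11.58 to 11.65 in Rarb-null arrays against 11.63 to 11.78 in WT arrays. Its difference was -0.077 (interval -0.15 to -0.0079, adjusted p 0.106). Differences of phosphoglycerate mutase Pgam1 (0.040), the neuronal enolase Eno2 (-0.0090) and pyruvate kinase Pkm (-0.030) had adjusted p-values of 0.5997, 0.905 and 0.535. The second Pkm probe set ran the other way, at 0.040. A further Pgk1 probe set gave the same means as the set used. Another gave -0.062, with an adjusted p of 0.184 by limma when each probe set was tested on its own. The further Pgam1 probe sets gave the same means as each other. Sets with the same values are no separate measurements.

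Of the lactate dehydrogenase subunits, Ldhb fell and Ldha did not pass the test. Both enzymes interconvert pyruvate and lactate, with Ldha the form that prevails in glycolytic tissue and Ldhb the one that prevails in oxidative tissue. Ldhb had log2 signals of 11.16, 11.05, 11.16, 11.18 and 11.13 in Rarb-null arrays, against a lowest of 11.17, a median of 11.26 and a highest of 11.28 in WT arrays. The groups overlapped through 1 WT array, replicate 6, which lay just below the highest Rarb-null array. Ldhb averaged 11.14 ± 0.05 (SD, n = 5) in Rarb-null and 11.24 ± 0.04 (SD, n = 6) in WT arrays. It fell by 0.11 (SE 0.033), with an adjusted p of 0.0358, and the linear signal fell by 7.30%. The second Ldhb probe set gave -0.088 (SE 0.036) with an adjusted p of 0.100 when each probe set was tested on its own. Where the probes of either set lie on the genome was not examined, so which set better reads Ldhb is not known. The call on the first was lost in 7 of the 11 fits that left out 1 array, namely Rarb-null replicate 2, 3 or 5 or WT replicate 2, 3, 4 or 5, with adjusted p-values of 0.0578 to 0.0831.

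Ldha had a difference of 0.030 (interval -0.047 to 0.11, adjusted p 0.585). The difference Ldha minus Ldhb within an array lay between 1.05 and 1.19 in Rarb-null arrays and between 0.98 and 1.01 in WT arrays. These ranges did not overlap, and the gap was 0.14 (SE 0.028). The exact permutation p was 0.00216, the smallest that 5 against 6 arrays allow, and the adjusted p over the 14 pairs was 0.0303. This was the only pair of the 14 that passed, and with the mean of each gene's probe sets the adjusted p was 0.0606. Leaving out 1 array gave gaps of 0.13 to 0.16 and adjusted p-values of 0.0333 to 0.111. Fewer arrays allow fewer splits and raise the smallest possible p, so a higher adjusted p there does not by itself show a weaker gap. Each value is a ratio within one array, so the test shows unequal change of both subunits' signals and not which of them changed.

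**Figure D3:**
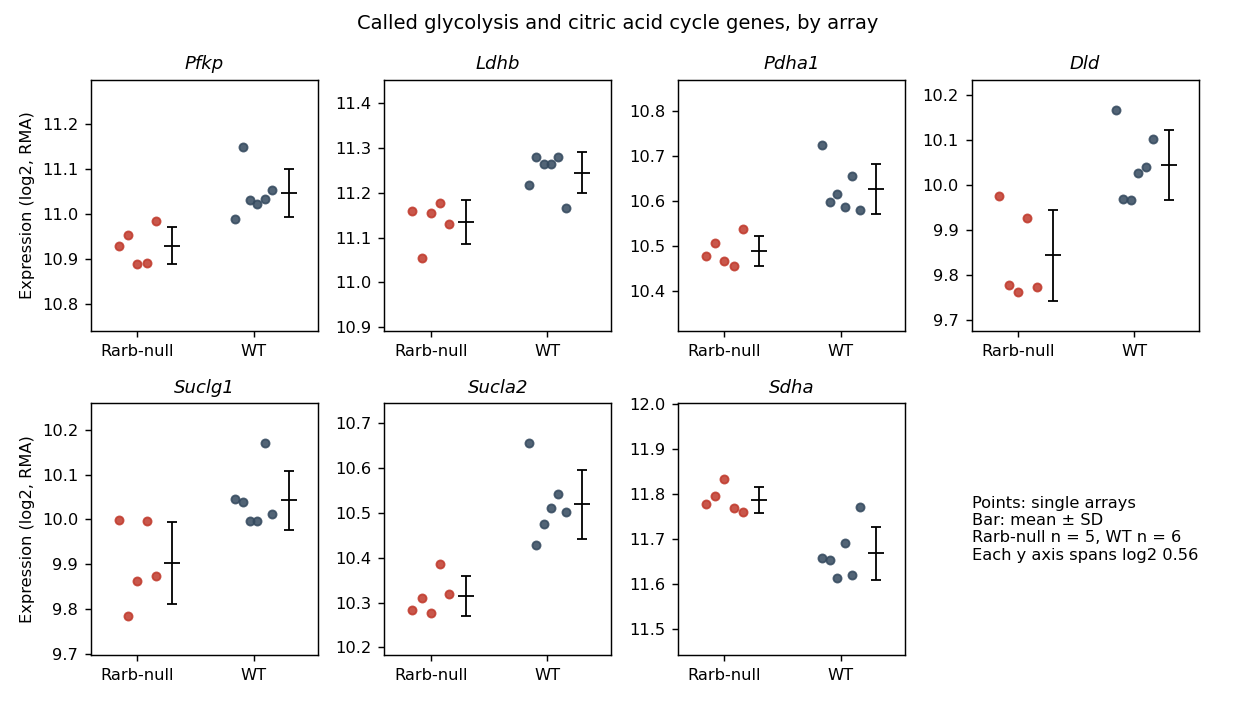
Log2 signal (vertical axes) of the 7 called members in every array, 1 point per mouse, with Rarb-null (n = 5) left of WT (n = 6) and bars for mean ± SD. Pfkp, Pdha1 and Sucla2 show no overlap between genotypes, Sdha is higher in Rarb-null arrays, and the other genes overlap by 1 or a few arrays.

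In mitochondrial pyruvate oxidation, genes of the pyruvate dehydrogenase complex fell. The complex has a decarboxylase part (Pdha1 and Pdhb), an acetyltransferase (Dlat), a lipoamide dehydrogenase (Dld) that the 2-oxoglutarate and branched-chain complexes share, and a binding protein (Pdhx). Pdha1 had log2 signals of 10.48, 10.51, 10.47, 10.46 and 10.54 in Rarb-null arrays, against a lowest of 10.58, a median of 10.61 and a highest of 10.72 in WT arrays. No Rarb-null array reached the lowest WT array. Pdha1 averaged 10.49 ± 0.03 (SD, n = 5) in Rarb-null and 10.63 ± 0.06 (SD, n = 6) in WT arrays. It fell by 0.14 (SE 0.033), with an adjusted p of 0.0126, and the linear signal fell by 9.14%.

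Dld had log2 signals of 9.98, 9.78, 9.76, 9.93 and 9.77 in Rarb-null arrays, against a lowest of 9.97, a median of 10.03 and a highest of 10.17 in WT arrays. Rarb-null replicates 1 and 4 lay closest to the WT arrays, and replicate 1 overlapped the lowest of them. Dld averaged 9.84 ± 0.10 (SD, n = 5) in Rarb-null arrays and 10.04 ± 0.08 (SD, n = 6) in WT arrays. It fell by 0.20 (SE 0.050), with an adjusted p of 0.0148, and the linear signal fell by 13.0%. Pdha1 and Dld were called in each of the 11 fits that left out 1 array. With arrays centred as above, the Pdha1 call was lost (adjusted p 0.0605) and that of Dld was kept. Dlat ranged from 10.21 to 10.37 in Rarb-null arrays against 10.32 to 10.59 in WT arrays, with a difference of -0.10 (interval -0.21 to 0.0071) and an adjusted p of 0.166.

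The 2 other subunit genes of the complex, which were listed as further pathway enzymes and not as members, fell too. Pdhb, the beta subunit of the decarboxylase, averaged 8.63 ± 0.09 (SD, n = 5) in Rarb-null and 8.88 ± 0.08 (SD, n = 6) in WT arrays, a difference of -0.24 (SE 0.048, adjusted p 0.00394), and the arrays touched at 8.76. Pdhx had a difference of -0.13 (SE 0.038, adjusted p 0.0258). Of the 5 subunit genes, 4 thus fell and Dlat was not called, with a median difference of -0.14, where 12% of all genes were called lower. The 4 became 2 with centred arrays, 1 with the cortical and 0 with the oligodendrocyte marker level in the fit. This grouping was made after the values were seen, and gives no test. Where Pdhb and Pdhx lie relative to Rarb, and which strain's alleles they carry, was not examined. The Pdhx call was lost with centred arrays (adjusted p 0.0548), and without Rarb-null replicate 2 (0.0634) or 3 (0.0689), or WT replicate 1 (0.0521) or 4 (0.0535).

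Pyruvate dehydrogenase kinases switch the complex off by phosphorylation, and the phosphatase Pdp1 switches it on. None of the 4 kinase genes was called. Pdk2, the widely expressed form, had a difference of 0.045 (adjusted p 0.380), Pdk1 one of -0.079 (0.358), Pdk3 one of -0.058 (0.197) and Pdk4, the form raised by fasting, one of -0.12 (interval -0.27 to 0.028, adjusted p 0.227). Pdk4 also had the largest spread within genotypes among members, an SD of 0.131. Pdp1, from the list of further enzymes, lay between 11.82 and 11.998 in Rarb-null arrays and between 11.62 and 11.79 in WT arrays, without overlap. It rose by 0.22 (SE 0.041, adjusted p 0.00262). Mpc1, a subunit of the carrier that brings pyruvate into mitochondria, had a difference of -0.064 (adjusted p 0.360).

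The genes from citrate to succinyl-CoA had mostly small negative differences and no call. Citrate synthase (Cs), which condenses acetyl-CoA with oxaloacetate, was the most constant member, with an SD of 0.0217 within genotypes. Its difference was -0.014 (interval -0.071 to 0.042, adjusted p 0.734). The NAD-dependent isocitrate dehydrogenase subunits Idh3a, Idh3b and Idh3g had differences of -0.082, -0.032 and -0.0078, and adjusted p-values of 0.128, 0.424 and 0.902. Idh2, the NADP-dependent mitochondrial enzyme, differed by -0.00049 (adjusted p 0.996).

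Ogdh and Dlst are subunits of the 2-oxoglutarate dehydrogenase complex, which makes succinyl-CoA and shares Dld with the pyruvate dehydrogenase complex. Ogdh differed by -0.058 (adjusted p 0.2497). Dlst ranged from 9.78 to 9.92 in Rarb-null arrays against 9.90 to 10.02 in WT arrays. Its difference was -0.097 (interval -0.17 to -0.022) with an adjusted p of 0.0666, and it passed the test only without WT replicate 1 (0.0499).

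All 3 genes of succinyl-CoA synthetase fell, where 12% of all genes were called lower. The enzyme cleaves succinyl-CoA to succinate while making ATP or GTP: Suclg1 encodes the shared alpha subunit, Sucla2 the ATP-forming beta subunit, which is prominent in brain, and Suclg2 the GTP-forming one. Sucla2 had log2 signals of 10.28, 10.31, 10.28, 10.39 and 10.32 in Rarb-null arrays, against a lowest of 10.43, a median of 10.51 and a highest of 10.66 in WT arrays. All Rarb-null arrays lay below all WT arrays, with WT replicate 1 the highest. Sucla2 averaged 10.31 ± 0.04 (SD, n = 5) in Rarb-null and 10.52 ± 0.08 (SD, n = 6) in WT arrays. Its log2 signal fell by 0.20 (SE 0.040), with an adjusted p of 0.00351, the lowest among the members, and its linear signal fell by 13.2%. It was called in each of the 11 fits that left out 1 array, and when arrays were centred.

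Suclg1 had log2 signals of 9.999, 9.79, 9.86, 9.9955 and 9.87 in Rarb-null arrays, against a lowest of 9.9955, a median of 10.03 and a highest of 10.17 in WT arrays. Rarb-null replicates 1 and 4 overlapped the lower WT arrays. It averaged 9.90 ± 0.09 (SD, n = 5) in Rarb-null and 10.04 ± 0.07 (SD, n = 6) in WT arrays, and fell by 0.14 (SE 0.046), with an adjusted p of 0.0480. The linear signal fell by 9.24%. This adjusted p was the nearest to the threshold among the called members. It was kept without Rarb-null replicate 1 or replicate 4 and lost in the other 9 fits that left out 1 array (adjusted p 0.0510 to 0.114). Suclg2, from the list of further enzymes, averaged 8.02 ± 0.06 (SD, n = 5) in Rarb-null and 8.24 ± 0.07 (SD, n = 6) in WT arrays without overlap, and fell by 0.22 (SE 0.041, adjusted p 0.00229). The 3 calls became 2 with centred arrays and 1 with either marker level in the fit. The grouping of these 3 genes was likewise made after their values were seen.

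**Figure D4:**
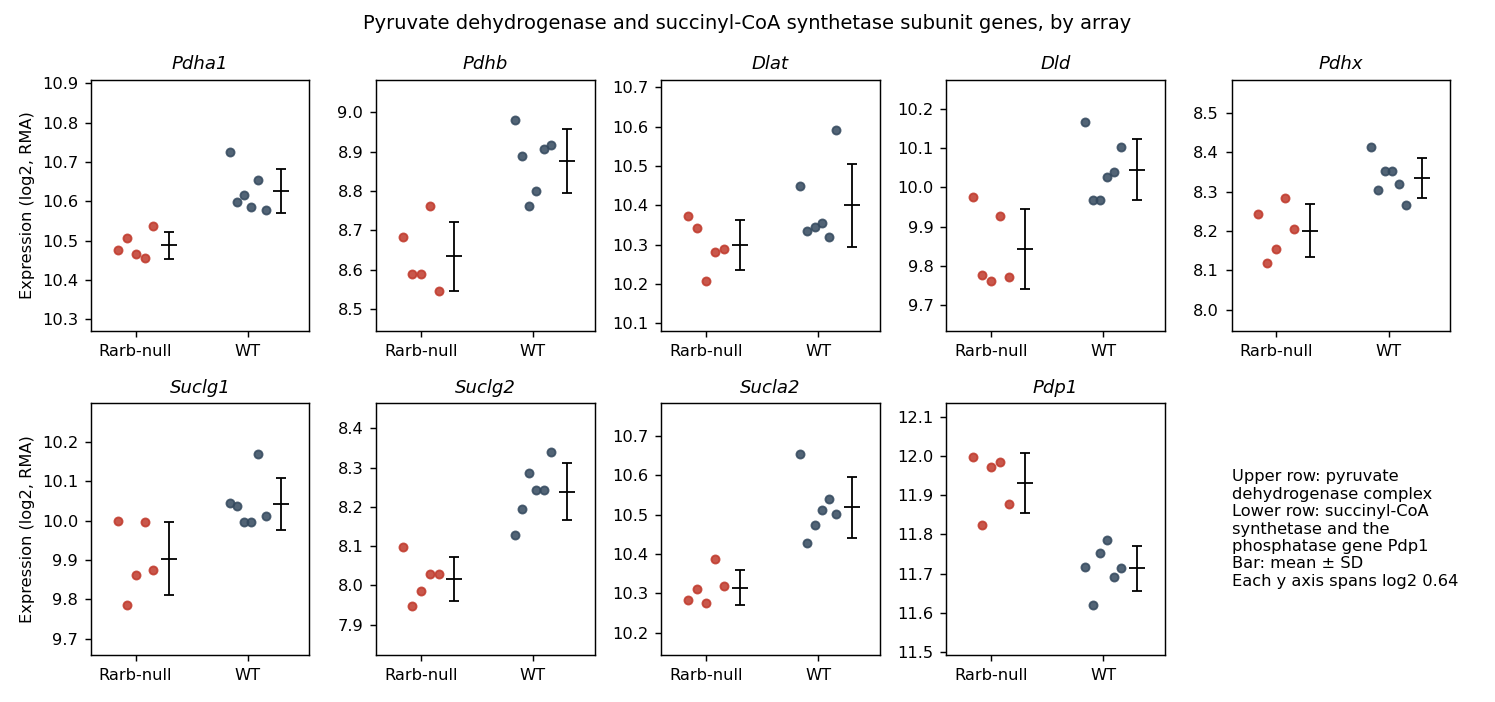
Log2 signal (vertical axes) in each array for the subunit genes of the pyruvate dehydrogenase complex (upper row), those of succinyl-CoA synthetase and the phosphatase gene Pdp1 (lower row), with Rarb-null arrays (n = 5) left of WT arrays (n = 6) and bars for mean ± SD. Of the 8 subunit genes, 7 passed the test as lower in Rarb-null arrays and Dlat did not, where 12% of all genes were called lower. The genes were grouped after their values were seen, so the count gives no test. Pdp1 is higher, and Sucla2, Suclg2, Pdha1 and Pdp1 show no overlap.

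Sdha was the only member that rose. It encodes the flavoprotein of succinate dehydrogenase, the enzyme that belongs to both the citric acid cycle and the respiratory chain. Sdha had log2 signals of 11.78, 11.80, 11.83, 11.77 and 11.76 in Rarb-null arrays, against a lowest of 11.61, a median of 11.66 and a highest of 11.77 in WT arrays. A single WT array, replicate 6, overlapped the Rarb-null ones. Sdha averaged 11.79 ± 0.03 (SD, n = 5) in Rarb-null and 11.67 ± 0.06 (SD, n = 6) in WT arrays, a difference of 0.12 (SE 0.034), or 8.63% in signal, with an adjusted p of 0.0259. The call was lost without Rarb-null replicate 2 (0.0511) or 3 (0.0708) or WT replicate 5 (0.0565).

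Sdhb, the iron-sulphur partner of Sdha, lay between 10.19 and 10.43 in Rarb-null arrays and between 10.32 and 10.49 in WT arrays. Its difference was -0.11 (interval -0.22 to -0.0078) with an adjusted p of 0.117. Sdha minus Sdhb was higher in Rarb-null arrays by 0.23 (SE 0.068), with an exact permutation p of 0.0152 and an adjusted p of 0.0909 over the 14 pairs, so the 2 subunits were not shown to differ. Fumarase (Fh1) had a difference of -0.039 (adjusted p 0.367). The malate dehydrogenases Mdh1, cytosolic, and Mdh2, mitochondrial, had differences of -0.076 (interval -0.14 to -0.0080, adjusted p 0.105) and -0.024 (adjusted p 0.659).

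Arrays of one genotype differed among themselves in how many members lay low. In Rarb-null replicates 1 to 5, 25, 30, 25, 25 and 22 of the 34 members were below the WT mean. The WT arrays ranged from 11 to 24, and the 2 highest counts, 23 and 24, came from replicates 1 and 6. The median deviation of the members from the WT mean ran from -0.061 to -0.029 in Rarb-null arrays and from -0.045 to 0.037 in WT arrays, so 2 WT arrays lay as low as the Rarb-null ones. The members' median within-genotype SD was 0.0533, beside 0.0743 over all genes, and their median level was 11.29 beside 8.96.

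**Figure D5:**
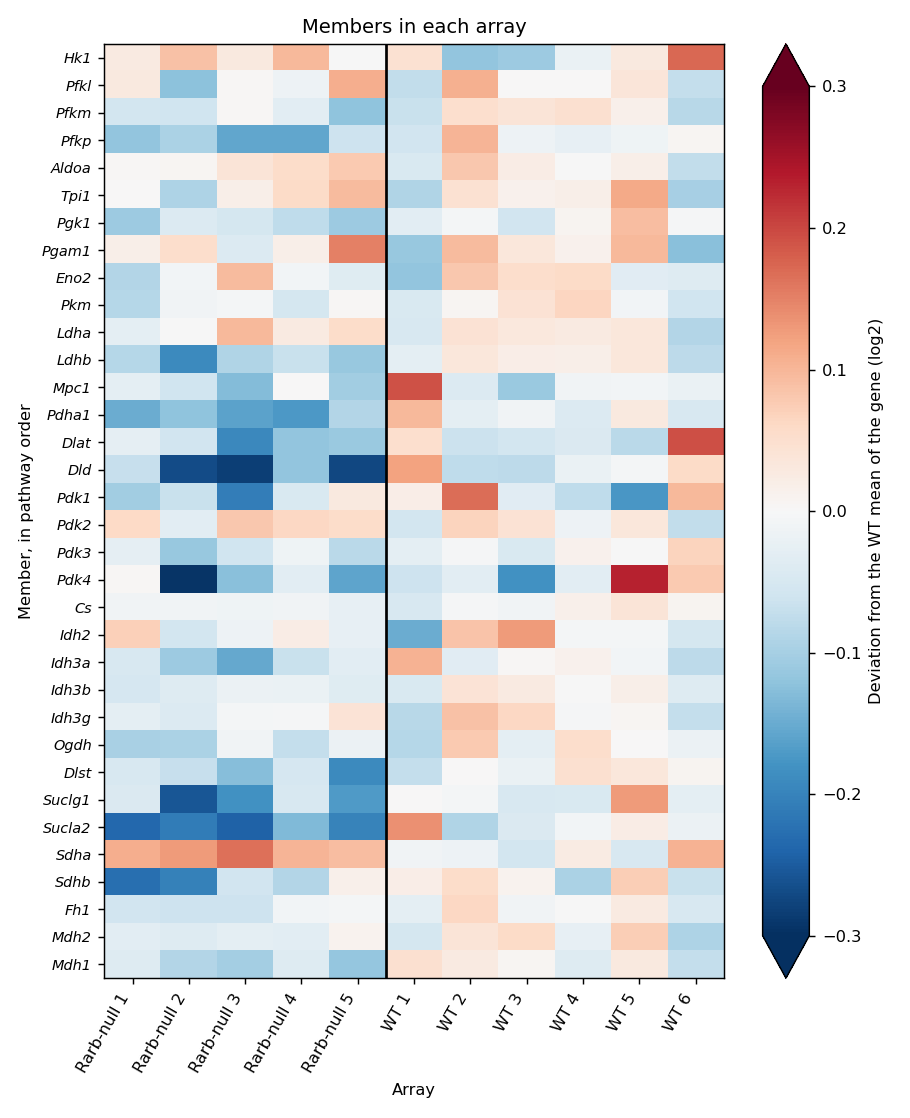
Deviation of each tested member (rows, by role) from its WT mean in log2 units (colour), with Rarb-null arrays left of WT arrays. From 22 to 30 of the 34 members lie below the WT mean in each Rarb-null array and from 11 to 24 in each WT array.

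Further genes of the pathway came from 3 lists, which held genes other than the members and were chosen with earlier results of these data known. Of 17 tested enzymes and subunits, 1 rose (Pdp1) and 4 fell (Suclg2, Pdhb, Pdhx and Aldoc), 29.4% called beside 19.6% of all genes, with a median difference of -0.11. Aldoc, the aldolase of astrocytes, averaged 12.90 ± 0.04 (SD, n = 5) in Rarb-null and 13.01 ± 0.05 (SD, n = 6) in WT arrays without overlap, and fell by 0.11 (SE 0.032, adjusted p 0.0265). Its call was lost with centred arrays (difference -0.074, adjusted p 0.123), and without Rarb-null replicate 2 (0.0606) or 5 (0.0595), or WT replicate 4 (0.0608) or 5 (0.0555). Pgam2, the muscle phosphoglycerate mutase, had a difference of -0.25 and was not called (adjusted p 0.0744).

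Of 15 tested genes of uptake, export and control, 2 rose and 1 fell (20% called, near the 19.6% of all genes), with a median difference of 0.010. Slc16a3, a monocarboxylate transporter known for lactate export, averaged 7.85 ± 0.08 (SD, n = 5) in Rarb-null arrays and 8.24 ± 0.10 (SD, n = 6) in WT arrays without overlap. It fell by 0.39 (SE 0.053, adjusted p 0.000229), more than any member. Slc2a12, a glucose transporter, rose by 0.24 (SE 0.050, adjusted p 0.00557), and Pck2, the mitochondrial phosphoenolpyruvate carboxykinase, rose by 0.17 (SE 0.041, adjusted p 0.0115). Slc2a1, the main glucose transporter of the blood-brain barrier, had a difference of 0.11 and Hif1a, a transcription factor that drives glycolytic genes under low oxygen, one of -0.14, with adjusted p-values of 0.0621 and 0.0629. Slc2a4, the insulin-responsive glucose transporter, had a difference of 0.14 (adjusted p 0.0871).

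Of 19 tested genes of the shuttles and of reactions linked to the cycle, with the coactivator gene Ppargc1a among them, 9 fell and 1 rose. That was 52.6% called, beside 19.6% of all genes, and 8 (42.1%) showed no overlap between genotypes, beside 11.2%. Because earlier results were known when the list was made, these shares give no test. The median difference was -0.11, beside -0.017 over all genes, and with centred arrays 6 fell and 1 rose. Abat, the GABA transaminase, fell by 0.26 (SE 0.032, adjusted p 9.72e-05), and Aldh5a1, which passes its product on to succinate, fell by 0.19 (SE 0.032, adjusted p 0.00122). Oxct1, which activates ketone bodies with succinyl-CoA, and Me2, the mitochondrial malic enzyme, both fell by 0.23 (adjusted p 0.000228 and 0.000325). Acly, which returns citrate to acetyl-CoA in the cytosol, fell by 0.23 (SE 0.040, adjusted p 0.00182), and Ppargc1a, a coactivator of mitochondrial genes, by 0.26 (SE 0.038, adjusted p 0.000526). These 6 genes showed no overlap and were called under every alternative tried. Gpd2, the mitochondrial glycerol-3-phosphate dehydrogenase, named after its value was seen, rose by 0.16 (SE 0.048, adjusted p 0.0395). The Gpd2 call was kept without Rarb-null replicate 2 or WT replicate 2 and lost in the other 9 fits that left out 1 array (adjusted p 0.0515 to 0.0846). It was also lost with no filter (0.0552), with the cortical level in the fit (difference 0.026, adjusted p 0.766), with the oligodendrocyte level (0.15, adjusted p 0.229) and without the 3 arrays of most extreme cortical level (0.084, adjusted p 0.186).

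Markers of cell types moved with genotype too. Over all genes, 12% were called lower and 7.56% higher. Cortical neuron markers were measured for 19 of 20 genes. The list is not limited to excitatory neurons, as it holds Vip, and whether all its genes mark tissue from outside the region was not tested. The mean log2 signal of these markers lay between 8.91 and 9.42 in Rarb-null arrays and between 8.45 and 9.01 in WT arrays. The difference was 0.38 (exact permutation p 0.0238), and 7 of the 16 tested genes rose, while Neurod6 was below the filter and Slc17a7 (0.90) was not called (adjusted p 0.0639). Oligodendrocyte markers (12 measured) lay between 9.13 and 9.36 in Rarb-null and between 9.32 and 9.55 in WT arrays, a difference of -0.16 (exact p 0.0216), and 6 of the 12 fell. The myelin genes Mbp (0.0092) and Mog (0.023) did not.

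Astrocyte markers (13 measured) lay between 9.98 and 10.06 in Rarb-null and between 10.11 and 10.20 in WT arrays. The difference was -0.13 (exact permutation p 0.00216), and 6 of the 13 fell while 1 rose. Markers of striatal projection neurons without Rarb (15 measured) lay between 11.54 and 11.70 in Rarb-null and between 11.79 and 11.90 in WT arrays, a difference of -0.20. With Rarb in the list, the exact permutation p was 0.00216, and 11 of the 16 tested genes fell. Ppp1r1b, a dopamine-regulated phosphatase inhibitor that defines these neurons, averaged 12.24 ± 0.05 (SD, n = 5) in Rarb-null and 12.34 ± 0.04 (SD, n = 6) in WT arrays, among the highest levels of all genes, with a difference of -0.10 and an adjusted p of 0.0499 that did not pass in 17 of 23 alternatives. Microglial and endothelial marker levels had exact p-values of 0.143 and 0.848.

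The levels of cortical and oligodendrocyte markers, which overlapped between genotypes, were each added to the fit. With the cortical level, 2 members were called, Pfkp and Sdhb, and with the oligodendrocyte level 1 was called, Ldhb, while over all genes the calls fell to 1150 and 804, against 2341 without a covariate. Sucla2 then had a difference of -0.18 (adjusted p 0.0663) with the cortical and -0.16 (adjusted p 0.109) with the oligodendrocyte level. Pdha1 had differences of -0.16 (0.0599) and -0.079 (0.277), and Dld had differences of -0.17 (0.150) and -0.18 (0.160). Sdha had differences of 0.13 (0.101) and 0.13 (0.141). Among the further pathway genes, Suclg2, Slc16a3 and Slc2a12 were called under every alternative in which they were tested, the calls of Pdp1 and Pdhb were lost with the oligodendrocyte level (adjusted p 0.0918 and 0.0739), that of Aldoc with the cortical level (0.170), and those of Pdhx and Pck2 with either. Without the 3 arrays of most extreme cortical marker level (Rarb-null replicate 5 and WT replicates 3 and 4), an alternative chosen after seeing the data, Pdha1 and Sucla2 were called among members and 1347 genes in all. The part of the astrocyte and projection neuron levels in these results was not tested.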

How the data were processed

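Nucleus accumbens RNA of 5 Rarb-null and 6 WT mice was measured on 11 Affymetrix Mouse Gene 1.0 ST arrays. The deposited values are log2 signals that the authors made by RMA, per the submitters' processing notes. The log base was inferred from their range. RMA as usually run equalises the arrays' probe distributions, so differences are relative; its software and settings are not given in the sources used here. Arrays give no counting depth, and their number limits the precision. No batch of extraction or scanning was given, and p-values measure the spread between these mice.

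The annotation table given named 1 gene for 21789 of 35556 probe sets and several genes for 1621, and did not list 12146. Symbols were updated through Entrez IDs. For a gene with several probe sets the one with the highest mean was used, and where its probes lie was not examined. Genes brighter than the 40th percentile of gene means were fitted with limma 3.58.1 (R 4.3.3: lmFit, eBayes), with Benjamini-Hochberg adjustment over all 11963 and a threshold of 0.05. Pair and marker values were tested by exact two-sided permutation of all 462 splits. The code was tested on simulated data. Promoters are RefSeq's (GRCm38.p6). Figures used matplotlib 3.10.9.

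Members and lists were chosen with earlier results of these data known. Named genes were Rarb, all members, up to 6 genes of lowest p in each of the 3 pathway lists and defining markers of cell types, with exceptions marked in the text. Alternatives were the filter, scaling, variance model, array weights, probe set choice, replicate number as a block, marker levels as covariates and leaving out each array.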

Additional observations from a re-analysis of the deposited data

Results flagged for a closer look

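In 8 of 120 groups of arrays examined, 5 of them among 70 for the members, 1 array lay apart from the rest of its genotype by Dixon's test, which chance gives in about 1 of 20 groups. Pdk2 read 10.47 in Rarb-null replicate 2, against 10.56 to 10.59 in the other Rarb-null arrays. Cs read 11.74 in Rarb-null replicate 5, barely below the others at 11.75, and Mdh2 read 12.31 in the same array, against 12.26 to 12.27. Suclg1 read 10.17 in WT replicate 5, against 9.9955 to 10.04 in the other WT arrays, and without that array its adjusted p no longer passed. Mpc1 read 11.53 in WT replicate 1, against 11.23 to 11.33. Among other pathway genes, Slc2a1 read 10.84 in WT replicate 1, against 10.96 to 11.03, and Acly read 10.49 in Rarb-null replicate 5, against 10.28 to 10.33. The mean level of cortical neuron markers was 9.42 in Rarb-null replicate 5, against 8.91 to 9.05 in the other Rarb-null arrays.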

How the results depend on the processing

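The Rarb difference stayed between -1.90 and -1.77 and the median difference of the members between -0.068 and -0.016 under every alternative. The 7 members called became 3 with centred arrays, 2 with the cortical marker covariate, 1 with the oligodendrocyte marker covariate, and 3 (without Rarb-null replicate 3) to 7 when single arrays were left out, with 4 without Rarb-null replicate 2 or WT replicate 5. They were 2 when the 3 arrays farthest out in cortical markers were omitted, an alternative chosen after seeing the data. The genes called, 2341, became 1150 and 804 with these covariates, 1347 without the 3 arrays, and 1547 (without Rarb-null replicate 3) to 2576 without single arrays. Members without overlap, 3, became 1 with centred arrays, 5 without the 3 arrays, and 3 to 5 (5 without WT replicate 6) without single arrays. Leaving out arrays can only keep or raise this count, and the share over all genes is not given for these settings. The 18 pathway genes called became 10 with the oligodendrocyte covariate. The isozyme pair called, 1, became 0 with the mean of probe sets and 0 to 2 without single arrays, where fewer splits raise the smallest possible p. None of the 7 called members was called under every alternative. Of the 27 others, 14 changed sign under at least 1, and Dlst, Sdhb and Mdh1 were called under at least 1. The cause was not tested. The labels give replicate numbers no meaning, and they were not taken as pairs: deviations of same-numbered arrays correlated at 0.257, 0.0557, 0.255, 0.188 and 0.425, all positive but 1 near 0, and 2 of the 5 pairs matched best with their own number. With the replicate block, in which WT replicate 6 has no partner and adds nothing, 6 members (all but Suclg1, adjusted p 0.0562), 2872 genes and 23 pathway genes were called, against 1948 genes without that array and without the block.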
